A study of Homo sapiens with 6 samples.

Results

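PTGS2, CXCL8, VEGFA and RTN3 are mRNAs that have been reported elsewhere to be stabilised by the RNA-binding protein RBM3, and ELAVL1 encodes HuR, an RNA-binding protein with which RBM3 has been reported to act. These 5 genes were chosen by symbol from those earlier reports and make up 5 of the 63677 gene identifiers in the count table and 5 of the 15099 genes that passed the filter on low counts. Their levels were followed in T24 cells, an established human cell line from a high-grade bladder cancer, in which RBM3 had been silenced. The study used the line to ask what loss of RBM3 does to the transcriptome.

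In the siRBM3 group, 3 libraries (replicates 3, 4 and 5) came from T24 cells given a pool of anti-RBM3 siRNAs, and in the control group, 3 libraries (replicates 1, 3 and 5) came from T24 cells given a non-targeting siRNA. Both groups carried the same genetic background and received a lipofection reagent in serum-free medium at a final siRNA concentration of 25 nM for 4.5 h, then recovered overnight in full medium. A single line was used and the siRNAs were given as a pool, so effects of 1 siRNA sequence cannot be told apart from those of the other. Nothing states that the libraries of a group came from separate cultures, and p-values then measure the spread between these libraries only. Polyadenylated RNA was sequenced, so the values are steady-state mRNA levels: synthesis and decay were not measured apart, and less mRNA per cell cannot be told apart from fewer cells that express the gene.

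HuR binds stretches rich in U and A in the 3′ untranslated region (UTR) of many short-lived mRNAs and protects them from decay. RBM3 is a cold-induced RNA-binding protein that also contacts 3′ UTRs. PTGS2 (cyclooxygenase-2, which makes prostaglandin precursors), CXCL8 (interleukin-8, a neutrophil chemokine) and VEGFA (the main angiogenic growth factor) are classic examples of mRNAs with AU-rich elements, the sites at which protecting and destabilising proteins compete. RTN3 is a reticulon that shapes tubules of the endoplasmic reticulum and is not usually listed among them.

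The AU-rich element was visible in the annotated 3′ UTRs. For each member the stretch of 30 bases with the most copies of the pentamer ATTTA in the longest annotated 3′ UTR is printed below, because these stretches show how the members differ in their densest run of the pentamer. Sequences are from GRCh37 with GENCODE v44lift37 gene models, are written 5′ to 3′ on the mRNA strand, and carry ATTTA in capitals, with copies that share a base written as 1 run.
PTGS2, chr1:186643414-186643443, minus strand: tattaATTTAattATTTAataatATTTAta
CXCL8, chr4:74608825-74608854, plus strand: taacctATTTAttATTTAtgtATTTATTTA
VEGFA, chr6:43754010-43754039, plus strand: ttaattttaatatttgttatcATTTATTTA
ELAVL1, chr19:8026724-8026753, minus strand: tttATTTAtacctATTTAtgtATTTATTTA
RTN3, chr11:63526200-63526229, plus strand: tttaatgATTTAactatcaacttgataaat

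The CXCL8 and ELAVL1 stretches each held 4 copies, PTGS2 held 3, VEGFA 2 and RTN3 1. Over the whole longest 3′ UTR, PTGS2 had 22 ATTTA in 2562 bases, which was more than in 97.4% of the 18881 genes with an annotated 3′ UTR. CXCL8 had 9 in 1252 bases and VEGFA had 10 in 1925 bases, more than in 83.7% and 86.0% of genes. ELAVL1, whose mRNA is itself a reported HuR target, had 13 in 4910 bases, more than in 91.0% of genes by number, but its density of 2.65 per kb was above that of only 68.6% of genes. By density PTGS2 (8.59 per kb), CXCL8 (7.19 per kb) and VEGFA (5.19 per kb) stood above 98.3%, 97.0% and 92.3% of genes. RTN3 had 2 in 1690 bases, which placed it near the middle, above 45.6% of genes. The longer motif TTATTTATT, which contains ATTTA, occurred once in each of PTGS2, CXCL8, VEGFA and ELAVL1 and did not occur in RTN3. Searched on the mRNA strand only, ATTTA was present in the longest 3′ UTR of 69.9% of genes and TTATTTATT in 8.83%. A match of these letters is a description of the sequence and does not show that a protein binds there.

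The silencing itself was visible at the mRNA level in every library. In CPM (counts per 1000000 counts of the library, with library sizes scaled by TMM factors), RBM3 read 225, 368 and 301 for control replicates 1, 3 and 5, against 54.1, 90.1 and 58.4 for siRBM3 replicates 3, 4 and 5. The highest siRBM3 library was thus well below the lowest control library, at a log2 fold change of -2.14 (SE 0.24). Even so, the edgeR quasi-likelihood test gave RBM3 an adjusted p of 0.0822 over all genes, short of the 0.01 used for a call, whereas DESeq2 gave 3.87e-14.

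The libraries held 23603992 to 27452442 counts, except siRBM3 replicate 3 with 45098612, and mitochondrial genes took 1.63% to 2.86% of counts in the control libraries, 2.32% and 4.15% in siRBM3 replicates 5 and 4, and 9.40% in siRBM3 replicate 3. Epithelial keratins KRT7, KRT8, KRT18 and KRT19 were well expressed, whereas KRT5, TP63, UPK1B, UPK3A and CDH1 were near 0. The 14 epithelial and urothelial markers summed to 5260 to 6070 CPM in the control libraries and 4410 to 4510 CPM in the siRBM3 libraries, with fold changes on both sides, from KRT7 at a log2 of -0.38 to GATA3 at 0.37. The endothelial markers summed to 27.9 to 33.7 CPM in control and 33.8 to 40.8 CPM in siRBM3 libraries, nearly all of it CDH5, the fibroblast and muscle markers to 11.7 to 14.9 CPM over all libraries, and the 3 leukocyte markers to at most 0.517 CPM in any library. Whether the mitochondrial share or the marker levels play a part in the values of the 5 members was not tested.

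PTGS2 (ENSG00000073756, GRCh37 chr1:186640923-186650054, minus strand) differed more between replicates than between groups. Control replicates 1, 3 and 5 read 9.27, 46.1 and 42.1 CPM, and siRBM3 replicates 3, 4 and 5 read 32, 11.4 and 10.9 CPM. Control replicate 1 was the lowest of all 6 libraries and siRBM3 replicate 3 sat with the high control libraries, so the groups overlapped. The mean was 32.5 ± 20.2 CPM in controls and 18.1 ± 12 CPM in siRBM3 cells (SD, n = 3 each). The log2 fold change was -0.83 (SE 0.63, 95% interval -2.31 to 0.64), with an edgeR adjusted p of 0.627 and an exact two-sided permutation p of 0.4, where 0.1 is the smallest that 3 against 3 libraries allow. The interval reaches from about a fold of 0.202 to 1.56, so neither a deep loss nor a gain of PTGS2 could be told from no difference. Leaving out siRBM3 replicate 3 gave -1.55, leaving out control replicate 1 gave -1.28 and leaving out control replicate 3 gave -0.50.

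CXCL8 (ENSG00000169429, chr4:74606236-74609433, plus strand) behaved much like PTGS2. Control replicates 1, 3 and 5 read 220, 1180 and 467 CPM, and siRBM3 replicates 3, 4 and 5 read 725, 327 and 173 CPM. Control replicate 3 and siRBM3 replicate 3 were the highest libraries, and the controls alone spanned 5.36-fold. With 623 ± 499 CPM in controls and 408 ± 285 CPM in siRBM3 cells (SD, n = 3 each), the log2 fold change was -0.61 (SE 0.67, 95% interval -2.18 to 0.96; edgeR adjusted p = 0.756). The direction rested on control replicate 3: without it the log2 fold change was 0.25, and without siRBM3 replicate 3 it was -1.32.

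VEGFA (ENSG00000112715, chr6:43737921-43754224, plus strand) was the member with the clearest difference, and it was lower in siRBM3 cells. Control replicates 1, 3 and 5 read 151, 276 and 206 CPM, and siRBM3 replicates 3, 4 and 5 read 167, 127 and 104 CPM. The groups overlapped in a single step, with siRBM3 replicate 3 above control replicate 1. The mean was 211 ± 62.5 CPM in controls and 133 ± 31.6 CPM in siRBM3 cells (SD, n = 3 each), a fold of 0.628 and a log2 fold change of -0.67 (SE 0.24, 95% interval -1.22 to -0.12). Its unadjusted edgeR p was 0.0236, but it did not pass over all genes, with an adjusted p of 0.302 by edgeR and 0.116 by DESeq2 (exact permutation p = 0.2). Its log2 fold change was negative with any 1 library left out, between -0.87 (siRBM3 replicate 3 left out) and -0.43 (control replicate 3 left out). The unadjusted p was above 0.05 when control replicate 3, siRBM3 replicate 4 or siRBM3 replicate 5 was left out, with adjusted edgeR values of 0.496, 0.548 and 0.511. With no filter on low counts VEGFA met the call (edgeR adjusted p = 0.00427). That setting also called many other genes, and RBM3 had an edgeR adjusted p of 4.04e-25 there, so the pass is not particular to VEGFA.

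RTN3 (ENSG00000133318, chr11:63448918-63527363, plus strand) was steady across all 6 libraries. Control replicates 1, 3 and 5 read 356, 298 and 322 CPM, and siRBM3 replicates 3, 4 and 5 read 369, 358 and 340 CPM. All 3 siRBM3 libraries were above control replicates 3 and 5, but siRBM3 replicate 5 was below control replicate 1, so the groups overlapped, with 326 ± 29.1 CPM in controls and 356 ± 14.6 CPM in siRBM3 cells (SD, n = 3 each). The log2 fold change of 0.13 (SE 0.10) did not pass the test (edgeR adjusted p = 0.629). Its 95% interval of -0.10 to 0.35 corresponds to folds of 0.936 to 1.28, so a fold of RTN3 below 0.936 lay outside the interval.

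ELAVL1 (ENSG00000066044, chr19:8023457-8070543, minus strand), the HuR gene, stood at the same level in both groups within a narrow spread. Control replicates 1, 3 and 5 read 139, 116 and 121 CPM, and siRBM3 replicates 3, 4 and 5 read 115, 131 and 134 CPM. Means came to 125 ± 12 and 127 ± 10.7 CPM (SD, n = 3 each). The log2 fold change was 0.02 (SE 0.11, 95% interval -0.23 to 0.26; edgeR adjusted p = 0.963), and its sign turned with the scaling, to -0.03 when library totals alone were used.

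**Figure D1:**
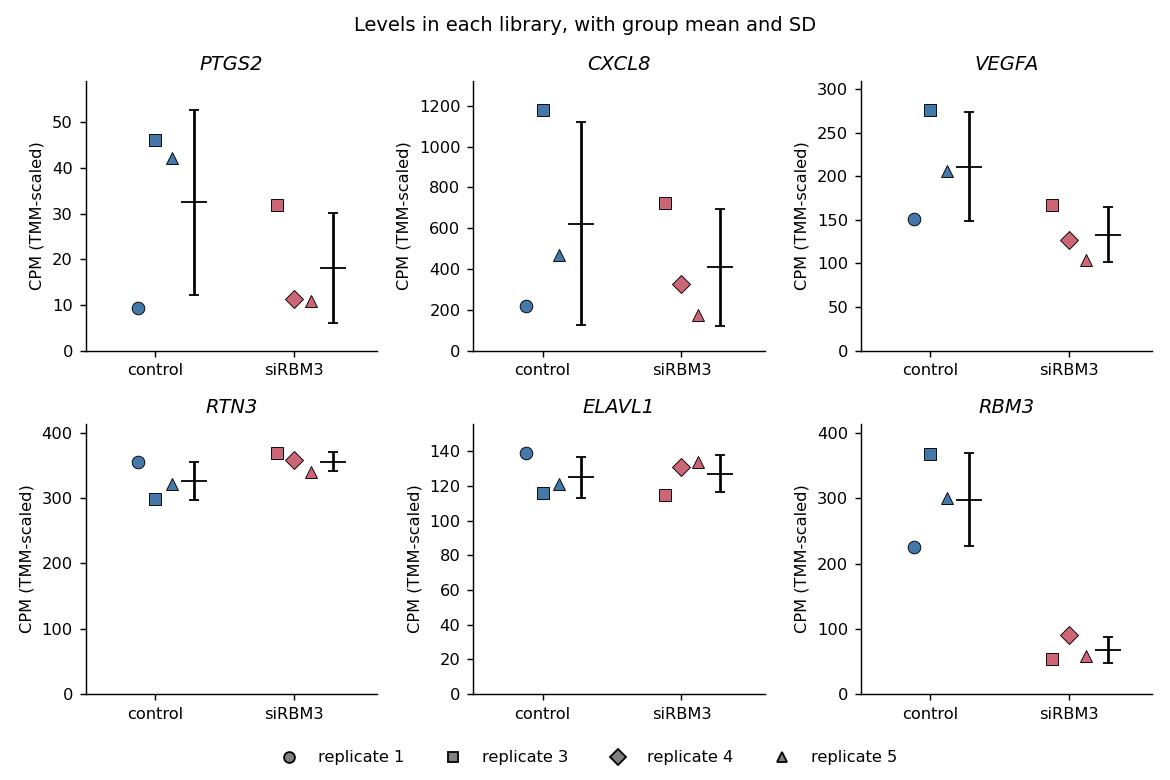
Levels of the 5 members and of RBM3 in each library, in TMM-scaled CPM on linear axes that start at 0, by group; marker shape gives the replicate number, and the bar beside each group is the mean with SD (n = 3). PTGS2 spans 9.27 to 46.1 CPM and CXCL8 173 to 1180 CPM with both groups mixed, whereas RTN3 spans 298 to 369 CPM and ELAVL1 115 to 139 CPM.

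None of the 5 members reached the call of a 1.5-fold difference at an edgeR adjusted p under 0.01, and 0% of the 15099 tested genes did. DESeq2, the tool the study used, was run here on the deposited counts. It called 159 of 13068 genes (1.22%), 84 higher (0.643%) and 75 lower (0.574%), and again none of the 5. The counts that the study itself reported at these thresholds were larger in both directions, and the cause was not tested. At an unadjusted edgeR p under 0.05, 1 of the 5 was lower (VEGFA) and 0 were higher, beside 993 genes (6.58%) lower and 990 (6.56%) higher over the whole table. Scaled by library size only, these became 1130 lower and 611 higher. The groups of libraries overlapped in 5 of 5 members, while 19.9% of all tested genes had groups that did not overlap, 9.98% with siRBM3 higher and 9.93% with siRBM3 lower. By size alone PTGS2, CXCL8 and VEGFA passed a 1.5-fold difference, a size reached by 7.92% of tested genes. These 3 log2 fold changes came with standard errors of 0.63, 0.67 and 0.24, against 0.10 and 0.11 for RTN3 and ELAVL1.

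**Figure D2:**
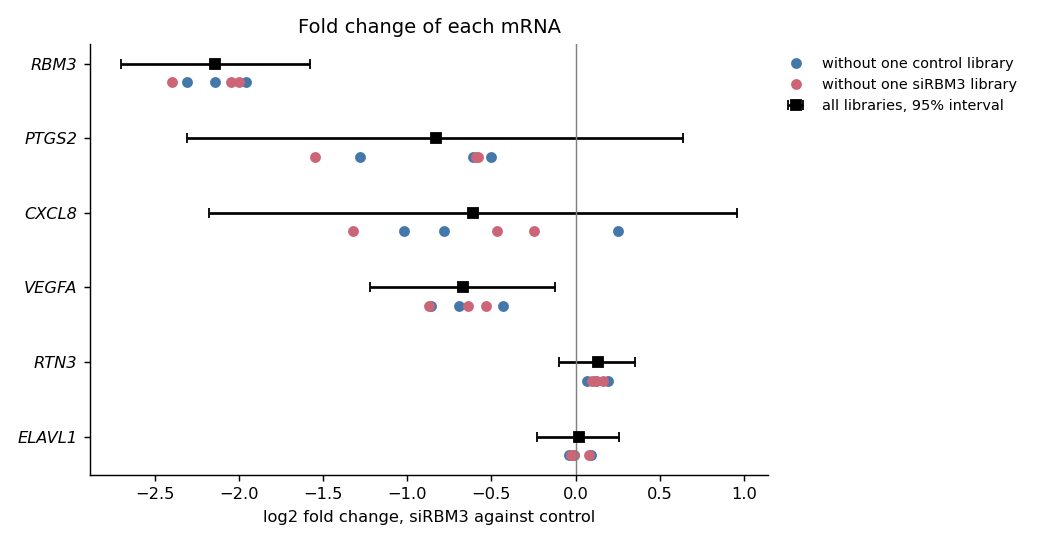
Log2 fold change of siRBM3 against control for RBM3 and the 5 members from the edgeR fit; squares are the estimate from all 6 libraries with its 95% interval, and circles are the estimates with 1 library left out, coloured by its group. The intervals of PTGS2 and CXCL8 cross 0 widely, and the CXCL8 estimate moves to 0.25 without control replicate 3.

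The spread between replicates set the members apart from each other. The SD of log2 CPM within groups was 1.13 for CXCL8 and 1.11 for PTGS2, at the 99.9th percentile of the 9428 genes with a mean of at least 10 CPM, whose median SD was 0.15. Only 6 of those genes varied more than CXCL8 and only 7 more than PTGS2. VEGFA had an SD of 0.39 and stood at the 92.9th percentile. ELAVL1 (SD 0.13) and RTN3 (SD 0.10) stood at the 38.6th and 22.7th percentiles, below the median gene.

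The libraries that were high for PTGS2 were also those high for CXCL8. For both genes control replicate 3, control replicate 5 and siRBM3 replicate 3 were the upper 3 of the 6 libraries, and for VEGFA they were the upper 3 too. ELAVL1 ran the other way within its narrow range, and the same 3 libraries were its lowest. Over all 6 libraries RBM3 did not follow this split: control replicate 1, low for PTGS2 and CXCL8, had 225 CPM of RBM3, and siRBM3 replicate 3, high for both, had 54.1 CPM. Within the controls it did: RBM3 read 225, 368 and 301 CPM in replicates 1, 3 and 5, the same order as PTGS2, CXCL8 and VEGFA. Within the siRBM3 libraries RBM3 was highest in replicate 4, whereas PTGS2, CXCL8 and VEGFA were highest in replicate 3. The mitochondrial share ran in the same order as PTGS2, CXCL8 and VEGFA within both groups. It was 1.63%, 2.86% and 2.1% in control replicates 1, 3 and 5. In siRBM3 replicates 3, 4 and 5 it was 9.4%, 4.15% and 2.32%. Over all 6 libraries it did not follow the split, since siRBM3 replicate 4 was above control replicates 3 and 5. The 3 upper libraries included siRBM3 replicate 3, the deepest one with the highest mitochondrial share. Which property of the libraries goes with the split was not tested.

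**Figure D3:**
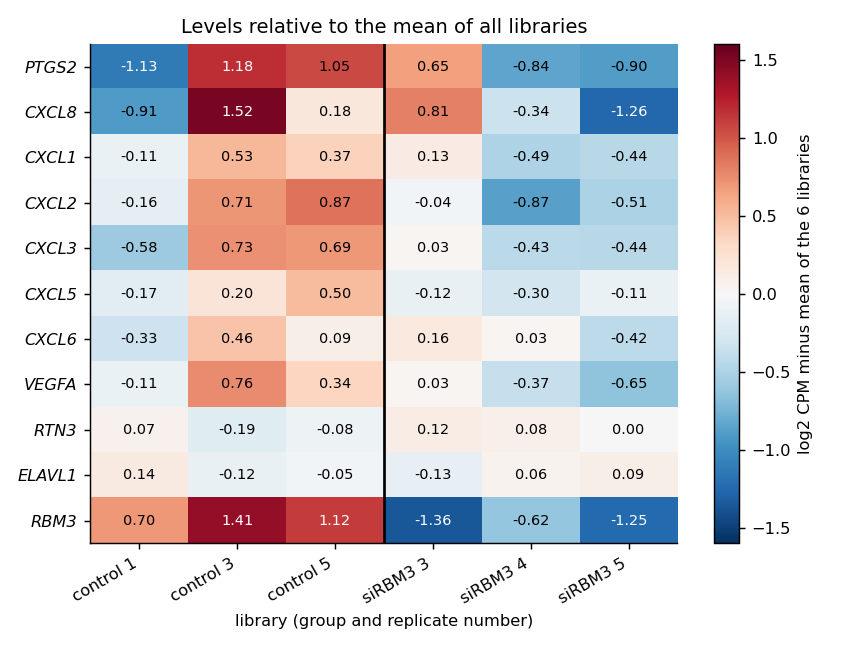
Heat map of log2 CPM in each library minus the mean of the 6 libraries, for the 5 members, RBM3 and the chemokines next to CXCL8; the black line parts control from siRBM3 libraries and each cell prints its value. PTGS2 reads -1.13 in control replicate 1 and 0.65 in siRBM3 replicate 3, against 0.07 and 0.12 for RTN3.

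Genes with the closest profile over the 6 libraries were found among the same 9428 genes, as a description over points that share libraries, depth and scaling. Nearest to PTGS2 were MARS1 and MARK3 (Pearson r = 0.996 and Spearman rho = 0.94 for each), nearest to CXCL8 were DPH5 (r = 0.997, rho = 1.0) and CYCS (r = 0.993, rho = 1.0), and nearest to VEGFA were CDCP1 (r = 0.995, rho = 1.0) and SLC7A5 (r = 0.994, rho = 1.0). RTN3 ran closest to YBX1 (r = 0.991, rho = 0.94), another RNA-binding protein gene, and RPTOR (r = 0.981, rho = 0.94). ELAVL1 ran closest to GALM (r = 0.994, rho = 1.0) and CS (r = 0.993, rho = 0.94). With only 6 libraries and 9428 genes, each of the 5 profiles had a near match.

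Per length of merged exons, CXCL8 was the most abundant member at 66.8 to 456 RPKM (CPM divided by length in kilobases) over the 6 libraries, followed by RTN3 at 51.5 to 63.7, ELAVL1 at 16.4 to 19.9, VEGFA at 7.23 to 19.1 and PTGS2 at 1.69 to 8.41. ELAVL1 and VEGFA overlapped in this order, as did VEGFA and PTGS2. The place of VEGFA depended on the length used: its merged exons cover 14431 bases, and on the 2909 bases of its transcript with the longest 3′ UTR it had 35.9 to 94.9 RPKM, above ELAVL1 at 18.9 to 22.9 RPKM on its own transcript. PTGS2 was the lowest on both lengths. Part of the merged exons overlapped a gene on the other strand for ELAVL1 (7.58%), PTGS2 (3.99%) and VEGFA (1.3%), and the sources used here do not say whether the counting used strand.

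Among genes whose proteins, like HuR, stabilise or protect mRNA, ELAVL1 had by far the highest mRNA level of the ELAVL family. It averaged 18.1 RPKM, ELAVL2 averaged 0.0973 RPKM, and ELAVL3 and ELAVL4 had at most 2 counts in any library. Of the 15 listed proteins of this kind 13 were tested, and at an unadjusted p under 0.05 1 was higher and 1 lower, which is 7.69% of the list each way beside 6.56% higher and 6.58% lower over all genes. The median log2 fold change was 0.02 with RBM3 and ELAVL1 included and 0.12 over the 11 others (-0.01 over all genes). The higher count was 2 without control replicate 1, control replicate 3 or siRBM3 replicate 4, and the lower count was 2 without control replicate 1 or siRBM3 replicate 3. The lower one was RBM3, and the higher one was MSI2, a Musashi-family translational regulator, at 51.0 ± 1.29 CPM in controls and 71.5 ± 1.25 CPM in siRBM3 cells (SD, n = 3 each; log2 fold change 0.49, edgeR adjusted p = 0.0928, DESeq2 adjusted p = 0.00108). YBX1, a cold-shock domain protein and the most abundant of the list, had 254 RPKM and a log2 fold change of 0.21 (edgeR adjusted p = 0.489).

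Proteins that destabilise or silence AU-rich mRNAs oppose HuR at the same sites. Of 14 listed, 11 were tested. At an unadjusted p under 0.05, 0 stood higher and 2 lower (18.2% beside 6.58% of all genes), and the median was 0.00. The lower count was 0 without siRBM3 replicate 3, 3 without control replicate 1 and 1 without any of the others, and the higher count was 2 without control replicate 3 and 1 without siRBM3 replicate 4. The lower pair was KHSRP, which recruits decay enzymes to AU-rich elements, at a log2 fold change of -0.28 (adjusted p = 0.257, edgeR), and TIAL1, a translational silencer, at -0.26 (adjusted p = 0.347). ZFP36L1, a decay-promoting zinc-finger protein and the most abundant one at 96.2 RPKM, had a log2 fold change of 0.09. HNRNPA1, TIA1 and ZFP36L2 were listed at 0 counts in all 6 libraries, as were DCP1A and EXOSC3 of the decay machinery. Since cells use these genes widely, the 0 is not read as absence.

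The enzymes that carry out decay had members on both sides. Of 38 listed subunits 36 were tested. At an unadjusted p under 0.05, 3 stood higher and 6 lower (8.33% and 16.7%, beside 6.56% and 6.58% of all genes), and the median was 0.00. The lower count was 3 without control replicate 3 or siRBM3 replicate 4, and the higher count was 5 without control replicate 3 and 2 without control replicate 5. CNOT8, a deadenylase of the CCR4-NOT complex, stood at 91.3 ± 5.79 CPM in controls and 58.2 ± 10.3 CPM in siRBM3 cells (SD, n = 3 each; log2 fold change -0.65, edgeR adjusted p = 0.129) and was called by DESeq2 (adjusted p = 0.00653). EXOSC8, a core subunit of the RNA exosome, was at -0.53 (edgeR adjusted p = 0.2), and CNOT10, EXOSC2, EXOSC5 and EXOSC9, named here after their values were seen, were at -0.53 to -0.33. On the other side stood the decapping enzyme DCP2 at 0.51 (adjusted p = 0.176) and the deadenylase CNOT6 at 0.39 (adjusted p = 0.184). PATL1, a decapping factor, was the most abundant of the list per length at 29.9 RPKM.

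All 20 listed partners that move HuR between nucleus and cytoplasm or modify it were tested. At an unadjusted p under 0.05, 3 stood higher and 1 lower (15% and 5%, beside 6.56% and 6.58% of all genes), and the median was -0.05. The lower count was 2 without control replicate 1 and 0 without control replicate 5, and the higher count was 3 without control replicate 3 or 5 and 2 without any of the others. BTRC, a ubiquitin ligase subunit reported to act on HuR, was at 27.9 ± 1.92 CPM in controls and 41.9 ± 1.53 CPM in siRBM3 cells (SD, n = 3 each), with a log2 fold change of 0.59 (edgeR adjusted p = 0.0931, DESeq2 0.000631). The DESeq2 log2 fold change of BTRC, 0.58, fell just short of 1.5-fold, so DESeq2 did not call it. PRKCA, a kinase that phosphorylates HuR, was at 0.32 (edgeR adjusted p = 0.219), and CHEK2, the checkpoint kinase that does so after DNA damage, at -0.51 (edgeR adjusted p = 0.276). ANP32B, a HuR ligand, was the most abundant of them at 169 RPKM.

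Transcripts commonly listed as HuR targets included several with lower levels in siRBM3 cells. Of 39 listed (the 5 members left aside) 36 were tested. At an unadjusted p under 0.05, 3 stood higher and 10 lower, which is 8.33% and 27.8% of the list beside 6.56% and 6.58% of all genes. The median log2 fold change was -0.10 against -0.01 over all genes. PLAU, the urokinase protease, was at 163 ± 37.5 CPM in controls and 96.2 ± 18.2 CPM in siRBM3 cells (SD, n = 3 each; log2 fold change -0.76, edgeR adjusted p = 0.175), and JUN, the AP-1 subunit, was at -0.66 (edgeR adjusted p = 0.243). Others on this side, named after their values were seen, included CXCL1, CXCL2, KLF2, DUSP1, CCND1, PLAUR and MYC. CXCL1 and CXCL2 are also the lower genes of the CXCL8 list below, so the shares of these lists are not independent. The higher ones included NF1, a RAS inhibitor, at 0.45 (adjusted p = 0.17), and CDKN1B, the cell cycle inhibitor p27, at 0.41 (adjusted p = 0.259). ACTB, the most abundant target at 1620 RPKM, was at 0.12. The count of lower targets was 5 without siRBM3 replicate 4 or 5, 6 without control replicate 3 or 5, 9 without siRBM3 replicate 3 and 13 without control replicate 1, and the count of higher targets was 5 without control replicate 3 and 2 without control replicate 1 or siRBM3 replicate 3 or 4.

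In the prostaglandin pathway around PTGS2, 9 genes had too few counts to be tested. Of 22 listed genes 13 were tested. At an unadjusted p under 0.05, 2 stood higher and 1 lower (15.4% and 7.69%, beside 6.56% and 6.58% of all genes), and the median was -0.13. The higher count was 0 without siRBM3 replicate 3 or 4 and 1 without any of the controls, and the lower count was 2 without control replicate 3 or siRBM3 replicate 3. PTGS1, the constitutive cyclooxygenase, was at 7.94 ± 0.809 CPM in controls and 6.25 ± 1.21 CPM in siRBM3 cells (SD, n = 3 each), with a log2 fold change of -0.35 (edgeR adjusted p = 0.479). Downstream, the prostaglandin E2 receptor gene PTGER4 was at -0.51 (adjusted p = 0.273), the prostaglandin F synthase AKR1C3 at 0.64 (adjusted p = 0.33) and the exporter ABCC4 at 0.27 (adjusted p = 0.327). PTGES3, the co-chaperone p23 that also has prostaglandin E synthase activity, was the most abundant at 103 RPKM.

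CXCL8 and its 5 tested neighbours, CXC chemokines of the same gene cluster, all had negative fold changes in the fit of all libraries. CXCL8 itself was at 0.25 without control replicate 3. The genes share the same libraries, so their shared sign is not a set of separate observations. Of 11 listed genes 6 were tested, with a median of -0.57, and 2 of the 6 were lower at an unadjusted p under 0.05 (33.3%, beside 6.58% of all genes). These were CXCL2, for which control replicates 1, 3 and 5 read 27.7, 50.8 and 56.9 CPM and siRBM3 replicates 3, 4 and 5 read 30.1, 17.0 and 21.8 CPM (log2 fold change -0.97, edgeR adjusted p = 0.244), and CXCL1, at 246 ± 53.5 and 171 ± 43.2 CPM (SD, n = 3 each; -0.52, edgeR adjusted p = 0.347). Control replicate 1 was the lowest control for both, as it was for CXCL8, and siRBM3 replicate 3 was the highest siRBM3 library. The receptors CXCR1 and CXCR2 had at most 1 count in any library. The number of lower members was 4 without control replicate 1, 2 without siRBM3 replicate 3 and 1 without any of the others.

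In the VEGF family 7 of 10 listed genes were tested, and 2 were lower at an unadjusted p under 0.05, VEGFA itself and PGF, the placental growth factor, at 31.0 ± 0.447 CPM in controls and 24.9 ± 2.09 CPM in siRBM3 cells (SD, n = 3 each; log2 fold change -0.32, edgeR adjusted p = 0.285). The lower share was 28.6%, beside 6.58% of all genes, and the median was -0.05. The lower count was 0 without siRBM3 replicate 4 and 1 without control replicate 3, control replicate 5 or siRBM3 replicate 5. VEGFB, the most abundant at 44.7 RPKM, was at 88.3 ± 11.8 and 87.9 ± 7.0 CPM (SD, n = 3 each; -0.01, edgeR adjusted p = 0.985). The receptor genes KDR and FLT4 had at most 3 counts in any library.

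Around RTN3, 24 of 30 listed reticulon, ER-shaping and ER-phagy genes were tested. At an unadjusted p under 0.05, 3 stood higher (12.5%, beside 6.56% of all genes) and 0 lower, and the median was 0.04. The higher count was 1 without siRBM3 replicate 3 and 2 without control replicate 1, control replicate 5 or siRBM3 replicate 4, and the lower count was 1 without control replicate 1. RTN4 (Nogo), the closest relative of RTN3 here and more abundant than it at 137 RPKM, was at 902 ± 73.7 CPM in controls and 914 ± 179 CPM in siRBM3 cells (SD, n = 3 each; log2 fold change 0.02, edgeR adjusted p = 0.964). ARL6IP5 and REEP3, small ER-membrane proteins, were at 0.34 (adjusted p = 0.23) and 0.30 (adjusted p = 0.285).

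**Figure D4:**
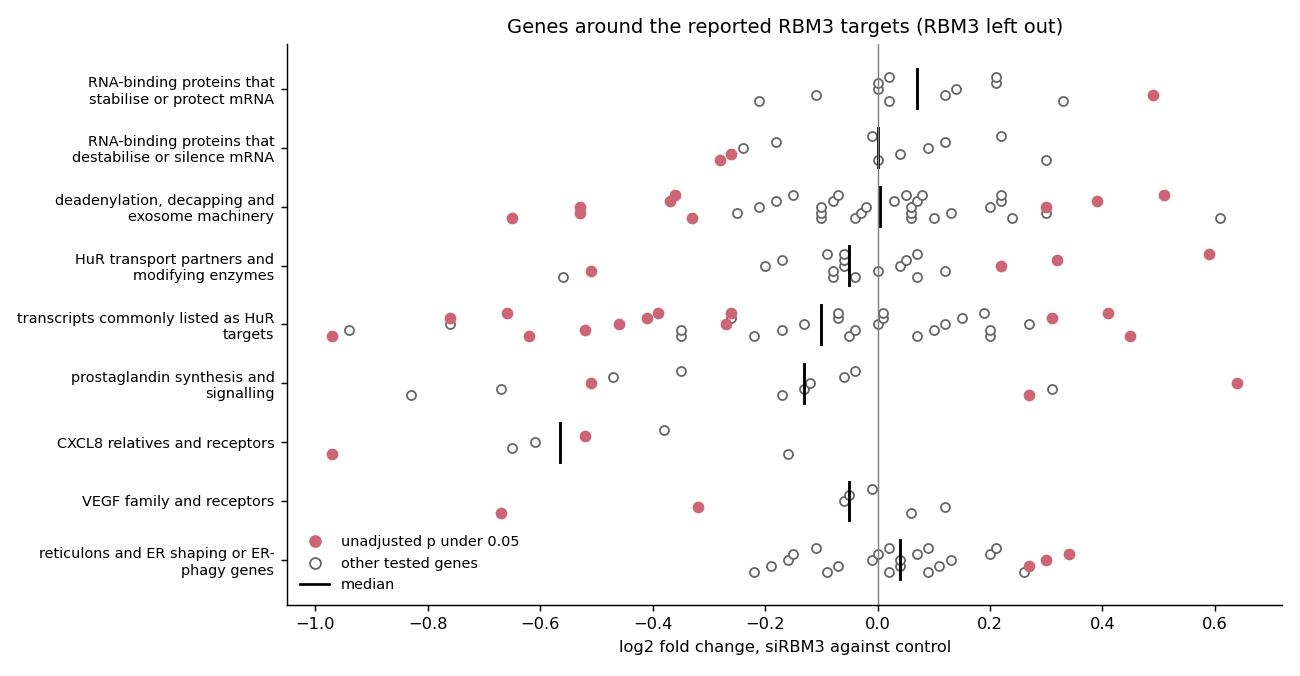
Log2 fold changes of the tested genes in the 9 lists around the members, with RBM3 left out; filled points have an unadjusted edgeR p under 0.05 and black bars are list medians. Chemokines of the CXCL8 list lie wholly below 0, from -0.97 to -0.16, while the reticulon list lies around a median of 0.04.

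Across the transcriptome, genes with 6 or more AU-rich pentamers had a small positive median log2 fold change. The estimates of PTGS2, CXCL8 and VEGFA were negative, though the intervals of PTGS2 and CXCL8 crossed 0. Whether the pentamer plays a part in the values of the members was not tested. The 3008 tested genes with no ATTTA in the longest 3′ UTR had a median log2 fold change of -0.06, and at an unadjusted p under 0.05 3.16% stood higher and 8.18% lower. The 3733 genes with 6 or more, the group that holds PTGS2, CXCL8, VEGFA and ELAVL1, had a median of 0.06, with 11.8% higher and 6.03% lower. This median was 0.10 without control replicate 3 and 0.03 without siRBM3 replicate 3, and that of the genes with none was -0.09 and -0.04. Genes with 1 to 2 pentamers, the group of RTN3, had a median of -0.06, and those with 3 to 5 a median of -0.01. UTR length increased along the same bins, from a median of 466.5 bases to 3509 bases, so number and length cannot be told apart here. Between libraries the median of the group with 6 or more, relative to the mean of the 6 libraries, was -0.082, 0.047 and -0.058 in control replicates 1, 3 and 5 and 0.082, 0.004 and 0.021 in siRBM3 replicates 3, 4 and 5, so the groups overlapped. The 1198 tested genes with TTATTTATT had a median of 0.03, with 9.68% higher and 8.1% lower, and the median was 0.06 without control replicate 3 and 0.00 without control replicate 5 or siRBM3 replicate 3.

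**Figure D5:**
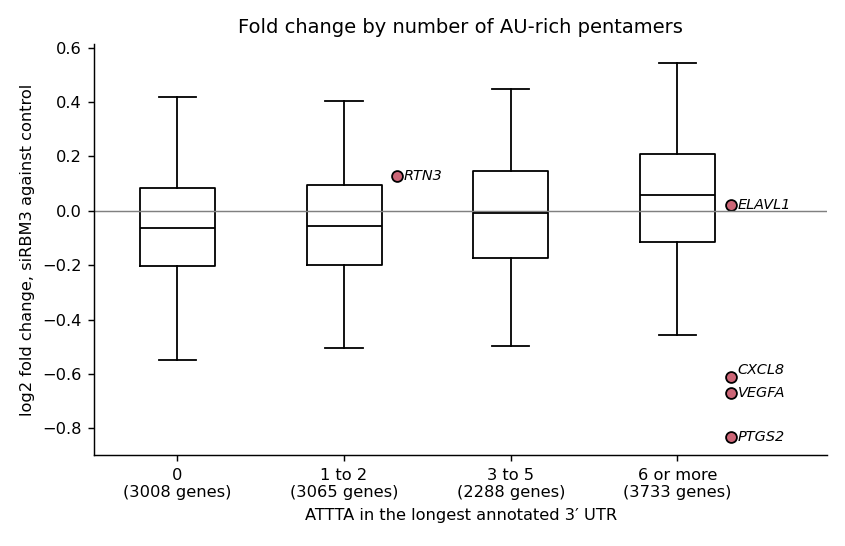
Log2 fold change of tested genes by the number of ATTTA in the longest annotated 3′ UTR; boxes span the quartiles with the median as a line, whiskers reach the 5th and 95th percentiles, and the 5 members are drawn beside their group. The estimates of PTGS2, CXCL8 and VEGFA lie below the lower whisker of the group with 6 or more, while ELAVL1 lies near its median of 0.06. Members are drawn without their 95% intervals, which for PTGS2 (-2.31 to 0.64) and CXCL8 (-2.18 to 0.96) include that median.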

How the data were processed

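The 6 libraries were made with a stranded poly(A) kit and sequenced single-end. Per the labels, reads were aligned with STAR, duplicates were marked with Picard and reads per gene were counted with featureCounts. The authors deposited these raw counts in 1 table for all samples, with Ensembl identifiers. For the annotation release, strand setting and treatment of marked duplicates, nothing is given in the sources used here. Library totals and TMM factors came from the deposited counts.

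Differential expression was tested with edgeR 4.0.16 (quasi-likelihood, robust dispersions, TMM, filterByExpr with a minimum count of 10) in R 4.3.3 without covariates, and genes were called at a 1.5-fold difference with a Benjamini-Hochberg adjusted p under 0.01, the thresholds of the study. Scripts were tested on simulated counts. Alternatives were DESeq2 1.42.0 with and without a prior, limma-voom 3.58.1, RLE factors, library size only, no filter, a filter at a mean of 20 counts, leaving out each library, the replicate number as a block and, added after seeing the data, the newer edgeR test. Single genes also had an exact permutation test (SciPy 1.17.1). Replicates of a group differed by more than sampling noise, at a chi-square per degree of freedom of 27.7 to 141.

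The members, gene lists and tests were chosen with earlier results of these data known. Named beside the members were, from each list, the gene with the highest mean RPKM and up to 2 genes in each direction with the smallest unadjusted p under 0.05, the ELAVL family, the closest relative of each member and the 2 genes most like each member over the libraries. Of the identifiers, 55665 matched GENCODE v44lift37, which gave merged exon lengths and 3′ UTRs. Symbols came from a separate list of gene names, or from GENCODE where that list had none. UTR analysis used the longest annotated 3′ UTR per gene.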

Additional observations from a re-analysis of the deposited data

How the results depend on the processing

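PTGS2, VEGFA and RTN3 kept their direction under every alternative run, and no alternative called PTGS2, CXCL8, RTN3 or ELAVL1. VEGFA passed the call with no filter on low counts (-0.66, adjusted p = 0.00427 by edgeR). ELAVL1 turned to -0.03 with library size only. With 1 library left out, PTGS2 lay between -1.55 and -0.50, CXCL8 between -1.32 and 0.25, VEGFA between -0.87 and -0.43, RTN3 between 0.07 and 0.19, ELAVL1 between -0.04 and 0.09 and RBM3 between -2.40 and -1.96. Over all genes, 0 were called in either direction by edgeR, 84 higher and 75 lower by DESeq2, 66 and 64 by DESeq2 with a prior, and 127 and 152 with no filter; leaving out 1 library gave 0 higher and 0 to 1 lower, the 1 without control replicate 1. Listed pathway genes at an unadjusted p under 0.05 numbered 15 higher and 23 lower, with ranges of 9 to 21 and 12 to 31 over the left-out libraries, the 9 without siRBM3 replicate 3 and the 12 without siRBM3 replicate 4. With library size only, the medians of the groups with 1 to 2 pentamers, 3 to 5 pentamers and TTATTTATT were -0.10, -0.06 and -0.02, and the shortest UTR gave -0.02 for 1 to 2. VEGFB turned to 0.00 with no filter and reached 0.06 with a library left out (-0.11 at the lowest), and RTN4 turned to -0.04 with library size only and ranged from -0.14 to 0.14 with a library left out. The causes were not tested.

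The groups share only the replicate numbers 3 and 5, whose deviations from the group means correlated at 0.53 and 0.09, so the numbers were not taken as pairs. Control replicate 1 and siRBM3 replicate 4 had no counterpart, so the blocked fold changes rested on replicates 3 and 5 alone. Few degrees of freedom were then left to measure spread, and the blocked calls are given as a description only. With the replicate number as a block, VEGFA met the call at -0.85 (adjusted p = 0.00218, edgeR), CXCL8 was at -1.07 and just short of it (adjusted p = 0.0155, edgeR), and PTGS2 was at -1.19, RTN3 0.19 and ELAVL1 0.07, VEGFB 0.00 and RTN4 -0.04, with 145 genes higher and 191 lower overall and 39 listed pathway genes lower.

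Depth was at least 23603992 counts per library, with 269 to 1311 counts of PTGS2 and 4281 to 30883 of CXCL8. The wide intervals of PTGS2 and CXCL8 came with a wide spread between the 3 libraries of each group. How much counting error adds to these intervals was not tested.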
